A study of Homo sapiens with 4 samples.

Results

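The mRNAs described here encode proteins of the nucleolus and of ribosome assembly, and the data ask how strongly each was recovered with ORC1-FLAG from nuclei of HCT116 cells. A list of 48 genes was set by name and matched to the deposited table through GENCODE v44 gene identifiers. Of these, 47 had a row among 63677 and 46 passed the filter on low counts, against 14645 genes tested in all. BOP1 was listed at 0 counts in all 4 libraries, and the identifier of NOL12 had no row. HCT116 is a human colorectal carcinoma line. All cells, Input included, were transfected with a pcDNA3 plasmid for ORC1 with a 3xFLAG tag and collected after 48 h, and nuclear lysates were prepared without crosslinking. RNA precipitated with the FLAG antibody M2 (IP) was compared with RNA of the same lysates before precipitation (Input), with 2 libraries each, numbered replicates 1 and 2. The protein was a transiently expressed, tagged copy from a codon-optimized coding sequence, and no control antibody or untransfected library was analysed here, so RNA held by the beads or antibody cannot be told apart from RNA held by ORC1-FLAG.

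Ribosomes are assembled mainly in the nucleolus, where RNA polymerase I makes the precursor of the ribosomal RNAs. Small nucleolar ribonucleoproteins (snoRNPs) guide its chemical modification, a large early particle (the small subunit processome) folds and cuts the part that becomes the small subunit, and a separate set of GTPases, methyltransferases and nucleases builds the large subunit. Many of these proteins carry long acidic or lysine-rich stretches. ORC1 is a subunit of the origin recognition complex, which marks where DNA replication can begin.

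Depth was 27483148 and 20280445 counts for IP replicates 1 and 2, and 14677002 and 9213877 counts for Input. Levels below are CPM, counts relative to the library total, after TMM scaling, which corrects for a few genes taking a large share of the reads. This scaling assumes that most genes do not differ between IP and Input. The 0 of each log2 ratio rests on that assumption, which was not tested. ORC1 itself was at 1108 and 18551 scaled CPM in IP replicates 1 and 2 and at 333 and 5063 in Input. The replicates thus differed far more in ORC1 than in the genes described here. Within a replicate the log2 ratio of IP to Input for ORC1 was 1.73 in replicate 1 and 1.87 in replicate 2. Reads were aligned to the hg19 genome, while the plasmid carries a codon-optimized ORC1 sequence. How much of the ORC1 count is RNA of the plasmid and how much is that of the cells' own gene is thus not known. The fit did not pair IP with Input, so the SE of ORC1 includes the difference in level between replicates. In that fit ORC1 did not pass the test (log2 fold change 1.87 ± 1.42 (SE), edgeR adjusted p = 0.374). The epithelial markers EPCAM, KRT8, KRT18, KRT19, CDH1 and CDX2 were present in every library, while CDH17 and VIL1 had at most 6 counts. Markers of blood, endothelial and liver cells had at most 4 counts, and COL1A1 had 126 to 470.

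To show what these coding sequences look like, the stretch of 40 codons with the most glutamate and lysine codons is printed for 7 members, 5′ to 3′ on the coding strand, with the codons GAA, GAG, AAA and AAG in capitals. The sequences are reference GRCh38 sequence of the GENCODE v44 canonical transcript, and positions are on GRCh38. The first 3 are members with a high IP to Input ratio. BMS1 (chr10:42817321-42817440, plus strand, exon 15, codons 803 to 842) has 20 such codons in its stretch, GNL2 (chr1:37568958-37569077, minus strand, exon 13, codons 548 to 587) has 17 and NPM1 (chr5:171391799-171392925, plus strand, exons 4 to 6 joined, codons 118 to 157) has 14.
BMS1: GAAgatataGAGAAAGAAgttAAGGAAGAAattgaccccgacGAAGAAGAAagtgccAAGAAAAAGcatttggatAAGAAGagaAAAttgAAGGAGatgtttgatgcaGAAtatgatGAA
GNL2: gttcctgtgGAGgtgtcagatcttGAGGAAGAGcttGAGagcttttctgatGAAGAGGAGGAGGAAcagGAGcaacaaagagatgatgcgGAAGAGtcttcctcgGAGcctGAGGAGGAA
NPM1: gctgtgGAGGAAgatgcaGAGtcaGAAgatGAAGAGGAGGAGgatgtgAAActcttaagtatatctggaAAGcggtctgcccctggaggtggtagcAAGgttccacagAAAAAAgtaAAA

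MPHOSPH10 is shown because it had the highest share of these codons over its whole coding sequence among the members tested, and FBL, UTP4 and NOP16 because their ratios were near or below 0. Other members with low ratios are not printed. Their richest stretches have 20 of these codons in RRP9 (log2 fold change 0.08), 15 in UTP23 (-1.48), 13 in NOP53 (0.20) and 12 in NOL9 (0.02). The stretch of MPHOSPH10 (chr2:71148104-71149339, plus strand, exons 9 and 10 joined, codons 555 to 594) has 20 such codons, that of FBL (chr19:39839185-39840417, minus strand, exons 3 to 5 joined, codons 94 to 133) has 10, that of UTP4 (chr16:69167171-69168925, plus strand, exons 16 and 17 joined, codons 644 to 683) has 8 and that of NOP16 (chr5:176385293-176388249, minus strand, exons 2 to 4 joined, codons 68 to 107) has 14.
MPHOSPH10: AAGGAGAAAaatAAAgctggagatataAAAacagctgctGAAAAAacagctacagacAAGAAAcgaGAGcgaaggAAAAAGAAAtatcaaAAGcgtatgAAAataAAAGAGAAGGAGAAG
FBL: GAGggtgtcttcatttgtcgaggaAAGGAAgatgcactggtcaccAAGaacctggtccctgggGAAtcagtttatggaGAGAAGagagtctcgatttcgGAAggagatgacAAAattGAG
UTP4: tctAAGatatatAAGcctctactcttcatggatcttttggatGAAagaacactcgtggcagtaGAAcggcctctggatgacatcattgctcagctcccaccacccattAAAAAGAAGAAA
NOP16: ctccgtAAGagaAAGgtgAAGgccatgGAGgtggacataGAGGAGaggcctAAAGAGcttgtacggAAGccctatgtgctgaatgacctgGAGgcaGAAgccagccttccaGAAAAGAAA

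As a group these mRNAs were recovered above Input. Of the 46 tested, 23 were enriched, which required a log2 fold change over 1 together with an edgeR adjusted p (Benjamini-Hochberg) under 0.05, where 10.5% of all genes tested were enriched. UTP23 was depleted by the same rule with the opposite sign, where 8.3% of all genes were. The median log2 fold change of the members was 1.21 (range -1.48 to 2.48), against 0.01 for all genes tested. The median of the ratios within a replicate, in scaled CPM with 0.5 added, was 1.00 in replicate 1 and 1.17 in replicate 2. Both IP libraries lay above both Input libraries in 38 members (82.6%), where 33.2% of all genes and 36.6% of protein-coding genes did. They lay below them in UTP23, where 31.9% of all genes did. The other 22 members did not pass both thresholds, among them TSR1, which passed the adjusted p (0.043) at a log2 fold change of 0.95. All the members are protein-coding, and over the 12534 tested protein-coding genes 11.9% were enriched at a median of 0.08. Members were more abundant, with median Input of 108 and 98.9 scaled CPM in replicates 1 and 2, against 25.5 and 24.1 for those genes. Higher counts make a call easier to reach, and the shares above are not matched for level. Spearman rho of log2 fold change with mean log2 Input was 0.36 in the members and 0.15 over those genes. The labels do not say that the replicates came from separate cultures, so the p-values measure the spread between these libraries.

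Among the enriched members, 15 were also called when each library was left out in turn: BMS1, GNL2, HEATR1, MYBBP1A, NCL, NOL11, NOL8, NOP14, NOP56, NPM1, RRP12, TCOF1, UTP20, UTP25 and UTP6. Without Input replicate 2, 15 members were enriched (9.23% of all genes tested) at a median of 0.76, and NOL10, NOP2, PES1, RRP1B, UTP11, UTP14A, UTP18 and WDR12 were no longer called. Without IP replicate 1, 17 were (8.04% of all genes tested), and NOP2, PES1, RRP1B, UTP11, UTP18 and WDR12 were not. Without Input replicate 1 or IP replicate 2 the counts were 32 and 29 (11.9% and 12% of all genes tested). With scaling to library size alone, which places the median of all genes at -0.59, 8 members were enriched (2.59% of all genes tested): BMS1, GNL2, NCL, NOL8, NOP14, NPM1, TCOF1 and UTP20. A fit with the replicate number as a block called 26 members enriched, the 23 above with GNL3, NIFK and NOP58, where 13.4% of all genes were. That fit leaves little spread to estimate within a gene, so its p-values rest largely on spread shared across genes.

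**Figure D1:**
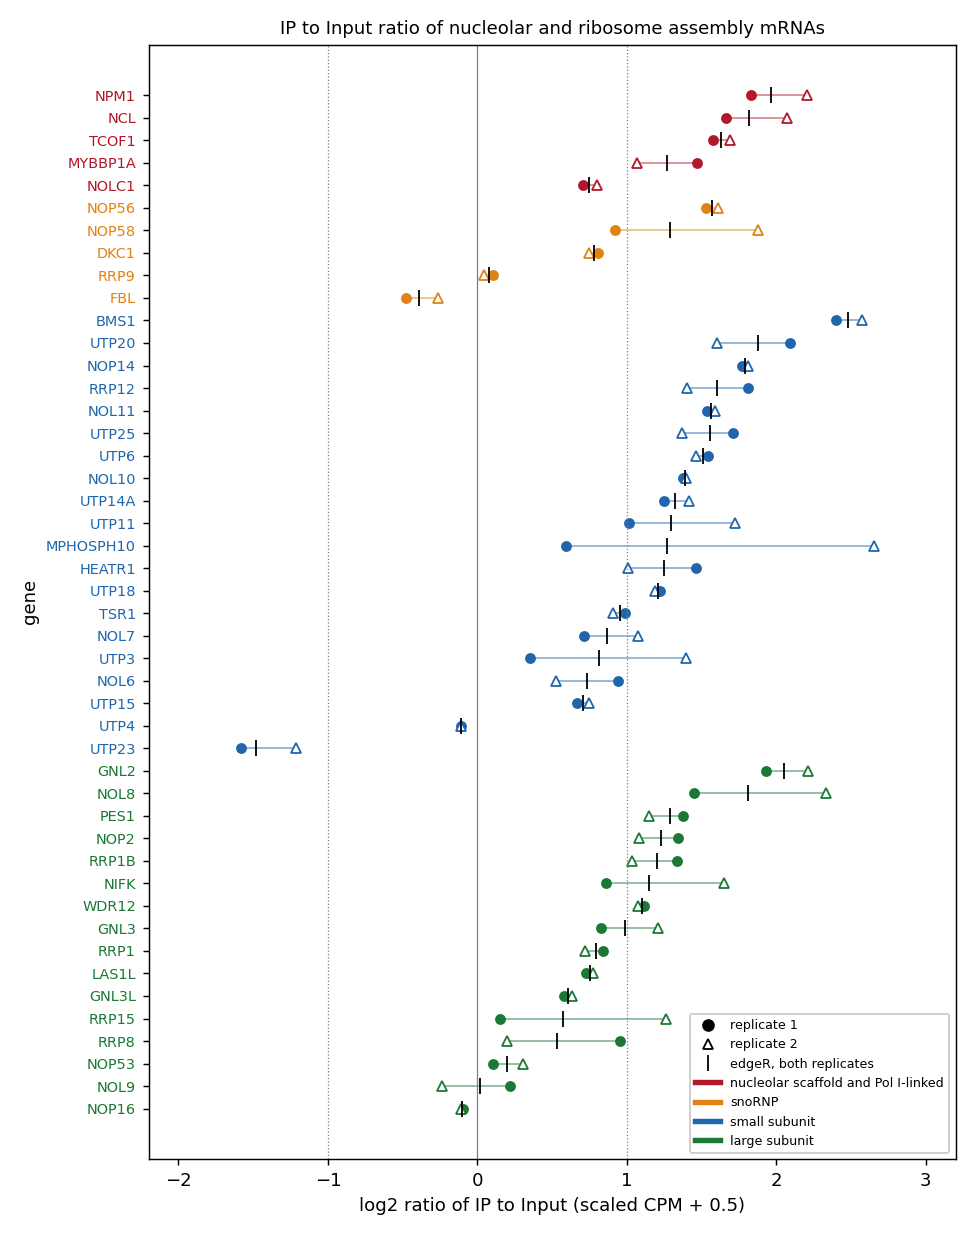
Log2 ratio of IP to Input (scaled CPM plus 0.5) for each of the 46 tested members, ordered by role and fold change; filled circles are replicate 1, open triangles replicate 2, and the black tick is the edgeR estimate over both. Most members lie right of 0 in both replicates, BMS1 is farthest right at 2.48, UTP23 is farthest left at -1.48, and MPHOSPH10 has replicates far apart at 0.59 and 2.65.

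Of the 5 nucleolar scaffold and polymerase I-linked members, 4 were enriched, where 10.5% of all genes tested were. The median log2 fold change was 1.63. NPM1 (nucleophosmin), a histone chaperone of the outer nucleolar layer, was at 7029 and 4363 scaled CPM in IP and at 1975 and 946 in Input. Both IP libraries were well above both Input libraries (log2 fold change 1.96 ± 0.46, edgeR adjusted p = 0.026), while the Input libraries themselves differed by a log2 of -1.06. Per kilobase of transcript, NPM1 had the highest level of the members in all 4 libraries, from 717 to 5325 scaled CPM per kilobase. The annotation holds 49 pseudogenes named for NPM1, and how the authors counted reads that fit several places is not stated, so its count is uncertain. NCL (nucleolin), an abundant RNA-binding protein with long acidic runs, was at 4474 and 3102 in IP and at 1412 and 737 in Input. The groups did not overlap (1.82 ± 0.41, edgeR adjusted p = 0.024).

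TCOF1 encodes treacle, which works with RNA polymerase I at the ribosomal DNA. It was at 639 and 499 scaled CPM in IP and at 213 and 154 in Input, with no overlap (1.63 ± 0.29, edgeR adjusted p = 0.014). MYBBP1A, a Myb-binding nucleolar protein tied to polymerase I transcription, was at 308 and 287 in IP and at 111 and 136 in Input. It passed the test as well (1.27 ± 0.25, edgeR adjusted p = 0.017). NOLC1, a chaperone of snoRNPs, was at 1339 and 1050 in IP and at 819 and 602 in Input. Its IP libraries were both above Input, but the difference did not pass either threshold (0.75 ± 0.30, edgeR adjusted p = 0.112). Of its codons, 25.5% are for glutamate or lysine.

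Of the 5 snoRNP members, 1 was enriched, where 10.5% of all genes tested were, so that this share rests on 1 gene. The median log2 fold change was 0.78. NOP56, a core protein of box C/D snoRNPs, was at 952 and 760 scaled CPM in IP and at 329 and 248 in Input. It was the enriched one (1.57 ± 0.29, edgeR adjusted p = 0.015). NOP58, its partner in the same particles, was at 432 and 366 in IP and at 228 and 99.1 in Input. Its ratio was 0.92 in replicate 1 and 1.88 in replicate 2, and it missed the adjusted p (1.29 ± 0.40, edgeR adjusted p = 0.060), whereas the fit with the replicate number as a block called it (edgeR adjusted p = 0.000295). DKC1 (dyskerin), the pseudouridine synthase of box H/ACA snoRNPs, was at 346 and 243 in IP and at 198 and 144 in Input. The groups did not overlap, without passing the test (0.78 ± 0.30, edgeR adjusted p = 0.097). FBL (fibrillarin), the methyltransferase that sits with NOP56 and NOP58, was at 158 and 131 in IP and at 220 and 158 in Input. The groups met, with IP replicate 1 level with Input replicate 2, and its estimate was -0.39 ± 0.27 (edgeR adjusted p = 0.330). RRP9, a protein particular to the U3 snoRNP, was at 91.5 and 80.4 in IP and at 85.1 and 78.0 in Input, with an estimate of 0.08 ± 0.22.

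Among the 20 members of the small subunit pathway, 12 were enriched and 1 was depleted, where 10.5% and 8.3% of all genes tested were. The median log2 fold change was 1.28. BMS1, a GTPase of the processome, was at 1349 and 1147 scaled CPM in IP and at 255 and 192 in Input. The groups were far apart, and this was the highest estimate of the tested members (2.48 ± 0.30, edgeR adjusted p = 0.011). The annotation holds 22 pseudogenes named for BMS1, whose reads may be split or shared. UTP20, a very long repeat protein of the processome, was at 485 and 345 in IP and at 113 in both Input libraries. The groups were well apart (1.88 ± 0.28, edgeR adjusted p = 0.011). NOP14, another processome scaffold protein, was at 467 and 347 in IP and at 137 and 98.7 in Input (1.79 ± 0.30, edgeR adjusted p = 0.013). An antisense gene, NOP14-AS1, shares 20.7% of its exonic bases, and the strand setting of the counting is not stated.

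RRP12, a HEAT-repeat protein involved in export of the subunits, was at 325 and 307 scaled CPM in IP and at 92.3 and 116 in Input (1.61 ± 0.25, edgeR adjusted p = 0.012). HEATR1, which helps polymerase I transcription and early processing, was at 506 and 402 in IP and at 183 and 200 in Input (1.25 ± 0.26, edgeR adjusted p = 0.019), with 23.1% of its exonic bases opposite another gene. In both, the lowest IP library was above the highest Input library. NOL11, a partner of UTP4 in early processing, was at 609 and 475 in IP and at 210 and 157 in Input (1.56 ± 0.29, edgeR adjusted p = 0.015). UTP25 was at 251 and 193 in IP and at 76.3 and 74.2 in Input (1.56 ± 0.25, edgeR adjusted p = 0.012).

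UTP6 and UTP18 belong to one subcomplex of the processome. UTP6 was at 228 and 203 scaled CPM in IP and at 77.7 and 73.3 in Input (1.51 ± 0.23, edgeR adjusted p = 0.012), and UTP18 was at 367 and 242 in IP and at 157 and 106 in Input (1.21 ± 0.32, edgeR adjusted p = 0.038). Both had IP libraries above Input, with closer replicates in UTP6. NOL10 was at 225 and 153 in IP and at 86.1 and 58.0 in Input (1.39 ± 0.31, edgeR adjusted p = 0.024). UTP14A, which binds a helicase that releases the U3 snoRNA, was at 220 and 173 in IP and at 92.4 and 64.7 in Input (1.32 ± 0.28, edgeR adjusted p = 0.020). UTP11, at 216 and 176 in IP and at 107 and 52.8 in Input, had the adjusted p nearest the threshold among the enriched members (edgeR adjusted p = 0.044).

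Not every part of the processome moved. UTP4, a member of the subcomplex that contacts the ribosomal DNA, was at 91.5 and 106 scaled CPM in IP and at 98.9 and 114 in Input, with overlapping groups (-0.11 ± 0.23, edgeR adjusted p = 0.763). MPHOSPH10, a core phosphoprotein of the processome, was at 126 and 122 in IP and at 83.2 and 19.0 in Input. Its IP libraries were alike and its Input libraries were not, so the estimate of 1.27 had a standard error of 0.59 (edgeR adjusted p = 0.160); 9 pseudogenes carry its name. UTP23, a factor of early small subunit processing, ran against the rest at 15.8 and 10.6 in IP and at 48.4 and 25.2 in Input. Both IP libraries lay below both Input libraries (-1.48 ± 0.37, edgeR adjusted p = 0.031), and 13.1% of its exonic bases lie opposite other genes (EIF3H and RAD21). Without Input replicate 1 its estimate was -0.89 and the call was lost. The remaining members of the small subunit pathway had estimates between 0.70 and 0.95 without a call. TSR1, a relative of BMS1, was at 385 and 297 in IP and at 194 and 158 in Input, and 26.9% of its exonic bases lie opposite other genes. UTP3 was at 87.5 and 98.5 in IP and at 68.4 and 37.1 in Input, and UTP15 at 129 and 103 in IP and at 81.3 and 61.1 in Input. NOL6 was at 152 and 136 in IP and at 79.3 and 94.0 in Input. In these 4 the IP libraries stayed above the Input libraries. NOL7 was the least abundant tested member, at 11.0 and 4.89 in IP and at 6.53 and 2.05 in Input, and its groups overlapped. In bulk libraries such as these, fewer cells with an RNA and less of it per cell cannot be told apart.

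Of the 16 large subunit members tested, 6 were enriched, where 10.5% of all genes tested were. The median log2 fold change was 0.89. GNL2, a GTPase of large subunit export, was at 650 and 512 scaled CPM in IP and at 170 and 110 in Input. It had the highest estimate here (2.05 ± 0.32, edgeR adjusted p = 0.012). NOL8 was at 230 and 210 in IP and at 83.9 and 41.3 in Input (1.81 ± 0.36, edgeR adjusted p = 0.018). NOP2, a cytosine methyltransferase of the large subunit RNA, and RRP1B had estimates of 1.23 ± 0.27 and 1.20 ± 0.28 (edgeR adjusted p = 0.022 and 0.026). NOP2 was at 367 and 267 in IP and at 144 and 126 in Input, and RRP1B at 627 and 449 in IP and at 248 and 219 in Input. Another annotated gene on the same strand shares 54.4% of the exonic bases of NOP2, so its count is uncertain.

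PES1, BOP1 and WDR12 form one complex in large subunit maturation. PES1 was at 614 and 387 scaled CPM in IP and at 236 and 174 in Input (1.29 ± 0.32, edgeR adjusted p = 0.032). WDR12 was at 235 and 203 in IP and at 108 and 95.9 in Input (1.10 ± 0.24, edgeR adjusted p = 0.021). Both were enriched with groups that did not overlap, and BOP1 could not be read because it is listed at 0. NIFK, which binds the proliferation protein Ki-67, was at 158 and 115 in IP and at 86.7 and 36.4 in Input without passing (1.15 ± 0.42, edgeR adjusted p = 0.089). GNL3 (nucleostemin), a relative of GNL2, was at 578 and 472 in IP and at 326 and 204 in Input, and at 0.99 ± 0.31 (edgeR adjusted p = 0.061) it passed neither threshold. With the replicate block both were called (edgeR adjusted p = 0.000129 for NIFK and 0.000153 for GNL3), with p-values that rest largely on spread shared across genes. The ratios in replicates 1 and 2 were 0.86 and 1.65 for NIFK and 0.83 and 1.21 for GNL3.

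Of the large subunit members without a call, LAS1L, an endonuclease of the internal spacer, was at 120 and 107 scaled CPM in IP and at 72.1 and 62.6 in Input (0.75 ± 0.23, edgeR adjusted p = 0.053). RRP1 was at 134 and 103 in IP and at 74.7 and 62.0 in Input (0.79 ± 0.25), and GNL3L, a relative of GNL3, at 128 and 126 in IP and at 85.2 and 81.3 in Input (0.61 ± 0.22). IP lay above Input in all 4 libraries of each of these 3. RRP15 was at 110 and 98.8 in IP and at 99.1 and 40.9 in Input, with the Input libraries far apart (0.58 ± 0.40). RRP8, a methyltransferase of the large subunit RNA, was at 29.1 and 31.6 in IP and at 14.8 and 27.5 in Input (0.53 ± 0.32). NOP53 was at 113 and 106 in IP and at 105 and 85.7 in Input. It was near 0 (0.20 ± 0.23), as were NOL9, a kinase of spacer processing (0.02 ± 0.27), and NOP16 (-0.10 ± 0.22), whose estimate has 18.6% of exonic bases opposite other genes behind it.

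The wider pathway was read from 96 further genes, of which 94 were tested; the identifiers of AATF and DDX52 had no row. Of these 35 (37.2%) were enriched and 8 (8.51%) depleted, where 10.5% and 8.3% of all genes tested were, so that the depleted share was near that of all genes. The median log2 fold change was 0.67. Large subunit factors had 18 of 39 enriched and 2 depleted, and small subunit factors 12 of 27 enriched and 1 depleted. The polymerase I machinery had 3 of 14 enriched and 1 depleted, the RNA exosome 2 of 10 enriched and 2 depleted at a median of -0.51, and the 4 other snoRNP proteins none enriched and 2 depleted. SDAD1 (2.37 ± 0.37), DDX10 (2.22 ± 0.32) and DDX24 (2.03 ± 0.26) were the highest among those called, and POLR1H (-1.84 ± 0.26), SNU13 (-1.45 ± 0.27) and EXOSC1 (-1.41 ± 0.23) the lowest. With scaling to library size alone, 12 (12.8%) of these 94 were enriched and 17 (18.1%) depleted, where 2.59% and 22.2% of all genes were. With upper-quartile scaling, 27 (28.7%) were enriched and 9 (9.57%) depleted, where 7.37% and 10.5% of all genes were. The depleted share was near that of all genes with upper-quartile scaling and somewhat below it with library size alone.

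The members tend to have long coding sequences, with a median of 1920 bases against 1436 for all 12534 tested protein-coding genes that have a coding sequence. Across the members, log2 fold change rose in rank with coding length (Spearman rho 0.53, n = 46; 0.62 in replicate 1 and 0.30 in replicate 2), and across all protein-coding genes rho was 0.59. These are descriptions across genes that share the same 4 libraries, and genes are not independent replicates. Among members with coding sequences under 1000 bases, 2 of 8 were enriched, where 2.48% of all protein-coding genes of that length were. Between 1000 and 2000 bases the figures were 5 of 15 and 6.27%, between 2000 and 3000 bases 9 of 15 and 17.4%, and from 3000 bases 7 of 8 and 38.9%. In each band the members' share was above that of the band.

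A straight line through all protein-coding genes rose by 0.49 in log2 fold change per doubling of coding length, with an SD of 0.73 around it. Of the 46 members, 42 (91.3%) lay above that line, against 49.2% of all protein-coding genes, at a median distance of 0.82. NPM1 was farthest above, at 2.24, with a coding sequence of 885 bases. BMS1 (1.72) and GNL2 (1.69) followed. UTP23 (-1.08), UTP4 (-0.43) and NOL9 (-0.32) were farthest below. Among long members, UTP20, with 8358 coding bases, was 0.56 above the line, and HEATR1, with 6435, was 0.12 above it.

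**Figure D2:**
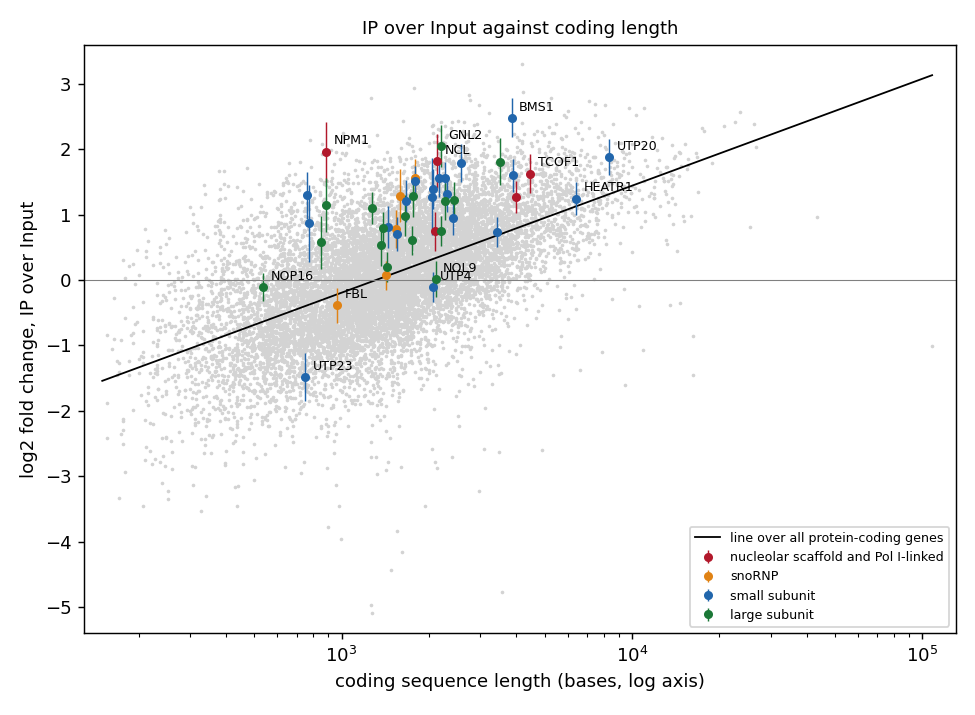
Log2 fold change of IP over Input (edgeR) against coding sequence length in bases on a log axis; grey points are all tested protein-coding genes, the line is the least-squares fit to them, and coloured points with SE bars are the members by role. All but 4 members lie above the line, NPM1 by 2.24 at 885 bases and UTP23 is farthest below it at -1.08.

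Glutamate and lysine codons made up a median of 19.9% of the codons of the members and 12.8% of those of all protein-coding genes tested. MPHOSPH10 had the highest share at 28.0% and NOL6, a processome protein, the lowest at 9.34%. In the richest stretch of 40 codons the members had a median of 17 such codons (range 8 to 27), against 11 over all genes. Longer coding sequences offer more stretches to choose from, and the members are longer, so this comparison is not matched for length. The motif GAAGAAGAA, in any frame on the coding strand, occurred in the coding sequence of 22 of 46 members (47.8%) and of 12.5% of all protein-coding genes. Its reverse complement TTCTTCTTC occurred in 1 member (2.17%) and in 2.58% of all genes. Members with the motif were enriched in 12 of 22 cases at a median log2 fold change of 1.28, and members without it in 11 of 24 cases at a median of 0.97. Over all protein-coding genes tested, 35.2% of those with the motif were enriched at a median of 0.78, and 8.59% of those without it at a median of -0.0057. Genes with the motif had a median coding length of 2250 bases, against 1365 without it, so this split is not matched for length. In a fit with both coding length and codon share, median distances with and without the motif were 0.17 and 0.0023 over all genes. In the members they were 0.41 and 0.34. The study itself reported GAA repeats as enriched among RNAs recovered with the tagged protein. The motif was thus known from the same experiment, so these comparisons by motif are not an independent test of it.

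Across the members, rho of log2 fold change with the codon share was 0.33 (n = 46), and with the ratios of single replicates it was 0.07 in replicate 1 and 0.56 in replicate 2. Over all protein-coding genes rho was 0.34. Against the distance from the coding length line, rho was 0.50 in the members and 0.41 over all genes. Members with at least 20% of these codons were enriched in 12 of 23 cases, where 32.9% of such genes were, and 1 of them, UTP23, was depleted. Between 16% and 20% the figures were 4 of 9 and 23.1%, between 12% and 16% 7 of 10 and 13.0%, and below 12% 0 of 4 and 3.27%. In a fit with both length and codon share, 38 members (82.6%) remained above the plane, against 51.5% of all genes, at a median distance of 0.36. NOLC1 and UTP23, both with more than 20% of these codons, lay below that plane at -0.40 and -1.62.

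**Figure D3:**
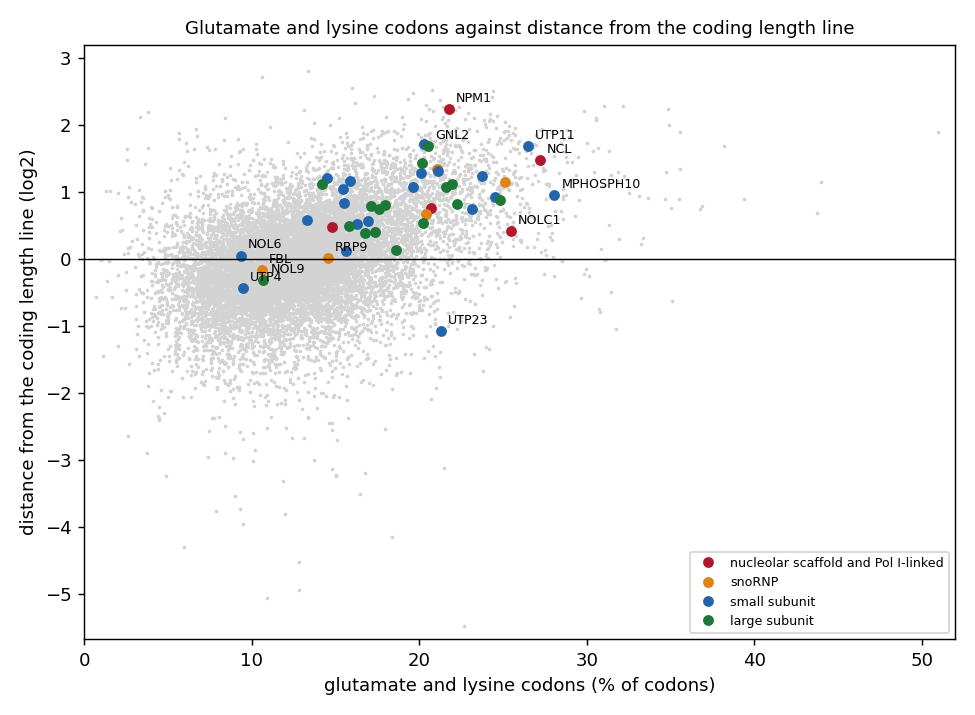
Distance of each gene from the coding length line (log2) against the share of glutamate and lysine codons (% of codons); grey points are all tested protein-coding genes and coloured points the members by role. Most members lie above 0 and right of the grey mass, with NPM1 at 2.24 and UTP23 at -1.08 at nearly the same codon share.

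The Input libraries differed from each other along the codon share of these genes. Between the Input libraries, the log2 of replicate 2 over replicate 1 fell in rank with the codon share of the members (rho -0.74, n = 46), with a median of -0.41 and a range from -2.10 in MPHOSPH10 to 0.87 in RRP8. Over all protein-coding genes rho was -0.29. Between the IP libraries rho was -0.14 in the members and -0.20 over all genes, with a median of -0.33. The difference between the ratios of replicates 2 and 1 went with the codon share at rho 0.69 in the members and 0.13 over all genes. GC content of the coding sequence went with the Input difference of the members at rho 0.50, and the part of either in the fold changes was not tested. The ratios of the 2 replicates correlated across the members at Pearson r 0.78, and across all protein-coding genes at 0.87.

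**Figure D4:**
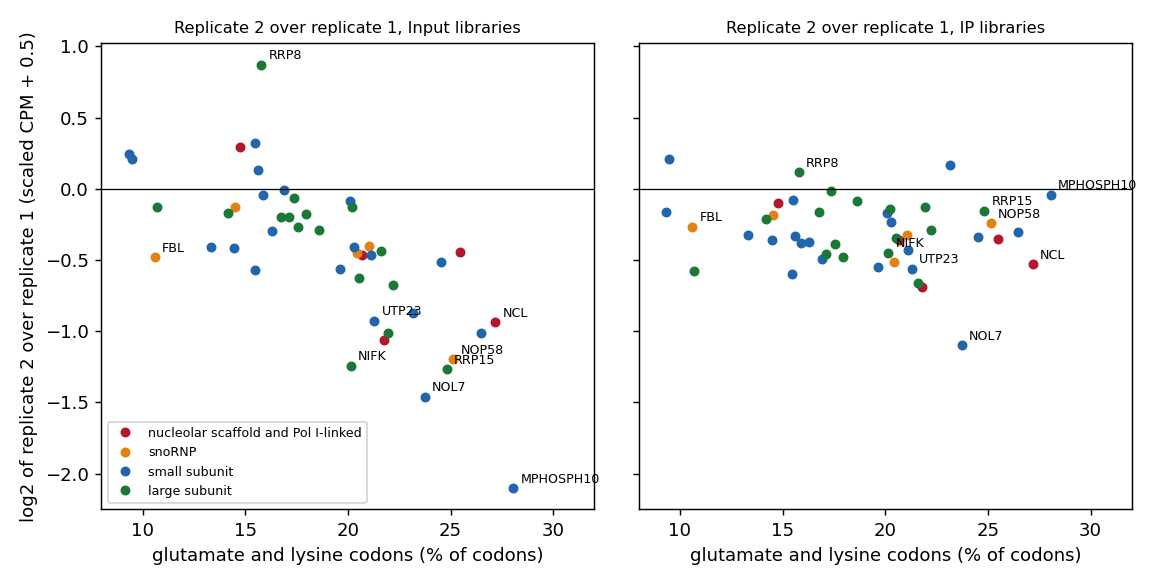
Log2 of replicate 2 over replicate 1 (scaled CPM plus 0.5) for the 46 tested members against their share of glutamate and lysine codons, in the Input libraries (left) and the IP libraries (right). In Input the points fall from left to right, with MPHOSPH10 lowest at -2.10, while in IP most stay near the median of -0.33, with NOL7 apart at -1.10.

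Several of these genes carry snoRNA genes inside them on the same strand: 8 of the 46 tested, namely GNL3 (6 snoRNA genes), NOP56 (5), NOP58 (4), NCL (3), DKC1 (2), TSR1 (2), NOL11 (1) and NOP53 (1). Of these 8 host genes, 3 were enriched, at a median log2 fold change of 1.14. The 38 members with no such gene had 20 enriched and a median of 1.21. Over all protein-coding genes tested, 217 were hosts, of which 49 (22.6%) were enriched, with a median of 0.34. A snoRNA gene that overlaps an exon of its host can share reads with it, and for NOP56 genes on the same strand cover 9.54% of its exonic bases.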

How the data were processed

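Nuclear RNA was measured by RNA immunoprecipitation sequencing of 2 ORC1-FLAG IP and 2 Input libraries (stranded total RNA kit after ribosomal RNA depletion). The authors deposited whole-number read counts per gene, not normalized; the submitters' processing notes name Trimmomatic, STAR, featureCounts and the hg19 (GRCh37) build, and the methods of the study use them for trimming, alignment and counting. The annotation release, strand setting and handling of multiply aligned reads are not given in the sources used here. Reads carry no molecular identifiers, so duplicates were counted as reads.

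Gene features came from GENCODE v44 on GRCh38, joined by Ensembl identifier without version: 52181 of 63677 identifiers matched and 380 of the genes tested did not. Coordinates are those of that release, not of the build of the counts. Where the canonical transcript has several exons, coding sequence was joined. Counts were tested with edgeR 4.0.16 (R 4.3.3; robust quasi-likelihood test, TMM, filterByExpr, group as the only term) on 14645 genes, with Benjamini-Hochberg adjustment over all of them; calls needed an adjusted p below 0.05 and an absolute log2 fold change above 1. TMM factors were 0.758 and 0.868 for IP and 1.19 and 1.28 for Input, and the biological coefficient of variation was 0.261. Replicates differed beyond sampling noise (chi-square per degree of freedom 51.1 in Input and 87.0 in IP). The script was tested on simulated data. Alternatives were DESeq2 1.42.0, limma 3.58.1 voom, other scalings and filters, a replicate block, leaving out each library, other length and codon measures and other pseudocounts. The IP and Input libraries with one number come from one precipitation per the labels, and their deviations from the group means correlated at r = 0.65 over 14645 genes. Named genes were the members called, the highest and lowest of each role, a set of well-known members, the extremes of codon share and of distance from the length line, and the 3 highest and lowest called genes of the wider pathway; others are named beside these where a count is listed. The sequence of 1 further stretch is not reported here. The members, lists and features were chosen with earlier results of these data known.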

Additional observations from a re-analysis of the deposited data

How the results depend on the processing

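Fold changes were positive for all 23 enriched members in every alternative fit, and 8 of them were called in each. Scaling to library size alone gave 380 enriched and 3257 depleted genes (10.4% of calls enriched, against 55.9% with TMM), 8 enriched members, and 12 enriched and 17 depleted genes of the wider pathway. There the median of all genes tested was -0.59, and medians were 0.59 for the members, 0.28 for the large subunit, 1.02 for the scaffold group, 0.70 for the small subunit, 0.17 for snoRNP proteins and 0.54 for snoRNA hosts. Upper-quartile scaling gave 41.2% of calls enriched and medians of 1.03, 0.72, 1.46, 1.14 and 0.61 for the members and the same 4 roles. DESeq2 and the fit without a count filter gave rho with coding length over all protein-coding genes of 0.47 and 0.46, with codon share of 0.26 and 0.25, and member distances from the plane of 0.51 and 0.48. With exonic in place of coding length rho was 0.27 in the members and 0.30 over all genes, and with AAA and AAG codons alone it was 0.24 over all genes. The replicate block gave 1957 depleted genes, and among the members tested it changed no call other than GNL3, NIFK and NOP58.

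Leaving out 1 library, where the lone library of a group is assumed to vary like the others, gave 15 to 32 enriched and 0 to 1 depleted members, 4 to 12 depleted genes of the wider pathway (4.26% to 12.8% of the 94, where 5.27% to 11.8% of all genes tested were depleted), and medians of 0.76 to 1.40 for the members, 0.52 to 1.29 for the large subunit, 1.27 to 1.92 for the scaffold group, 0.87 to 1.61 for the small subunit, 0.42 to 1.07 for snoRNP proteins and 0.66 to 1.62 for hosts. The Spearman coefficient with coding length spanned 0.25 to 0.65 in the members and 0.49 to 0.59 over all genes, and that with codon share 0.23 to 0.40 over all genes. Distances spanned 0.55 to 1.18 from the line and 0.18 to 0.57 from the plane. Signs turned mainly in members near 0, but also in RRP15 and RRP8, whose log2 fold changes were 0.58 and 0.53 with TMM. With library size alone the log2 fold changes were -0.011 for RRP15, -0.40 for NOP53, -0.53 for RRP9, -0.080 for RRP8 and -0.60 for NOL9; with upper-quartile scaling RRP9 was at -0.10 and NOL9 at -0.16; and NOL9 was at -0.0057 with RLE size factors, -0.014 with a minimum of 1 CPM in 2 libraries, -0.0099 with limma voom and -0.0065 with the block. Leaving out 1 library turned NOP16 (-0.32 to 0.020), RRP15 (-0.074 to 1.39), NOP53 (-0.088 to 0.39), RRP9 (-0.14 to 0.22), UTP4 (-0.17 to 0.039) and NOL9 (-0.26 to 0.33). The cause of these shifts was not tested.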
